A study of Homo sapiens with 10 samples.

Results

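The glycosyltransferases described here are the enzymes that finish the sugar chains of the cell surface: the galactosyl-, N-acetylglucosaminyl-, N-acetylgalactosaminyl-, fucosyl- and sialyltransferases whose symbols begin with B3GALT, B3GNT, B4GALT, B4GALNT, FUT, GCNT, ST3GAL, ST6GAL, ST6GALNAC or ST8SIA followed by a number. The rule for membership uses the symbol and no measured value, although the set was proposed with earlier results of these data known. The members numbered 61 of the 23018 genes in the tables. Transcripts were measured by RNA sequencing in WA09, an established line of human embryonic stem cells (hESC), and in 4 derivatives made from it, with 2 libraries for each of the 5 cell types. Definitive endoderm (DE) was cultured for 4 days in activin A (100 ng/mL) and FGF (8 ng/mL), without IGF-I or heregulin, and Wnt-3a (25 ng/mL) was present on the first day only. Splanchnic mesoderm (MESO) had 4 days in activin A (10 ng/mL), heregulin (10 ng/mL), IGF-I (200 ng/mL) and FGF (8 ng/mL). BMP-4 (100 ng/mL) and Wnt-3a (25 ng/mL) were added to these. Neural progenitors (NPC) had 6 days in IGF-I and heregulin with SB431542, an inhibitor of activin receptors, and LDN at 500 nM, an inhibitor of BMP receptors. Pre-neural crest cells (NCSC) had 6 days in FGF, IGF-I and heregulin with SB431542 and with BIO, which inhibits GSK3, a kinase of the Wnt pathway. The hESC were held for 4 days in the same FGF, IGF-I, heregulin and activin A as MESO, without Wnt-3a or BMP-4. All cells came from 1 line at passages 52 to 58; NPC and NCSC were seeded at 90000 cells per square centimetre, and DE, MESO and hESC at 50000.

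As background, sugar chains are built in the Golgi apparatus by enzymes that each add 1 kind of sugar in 1 kind of linkage, and the last sugars added give a cell its surface antigens. Human pluripotent cells are known for globo-series glycolipids (the antigens SSEA-3 and SSEA-4), for keratan sulfate epitopes (TRA-1-60 and TRA-1-81) and for the H antigen on lacto chains (SSEA-5), and neural cells for gangliosides and for polysialic acid on the adhesion molecule NCAM1. Transcripts were measured here, and neither the enzymes' activities nor the glycans.

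Each derivative had its own deposited table, with 1 FPKM value (fragments per transcript length and library size) for the derivative and 1 for hESC. The authors had combined the 2 libraries of each cell type, so the spread between libraries and the read depth are not known. The words rose, fell and called refer below to the q-value in the authors' deposited table of that derivative being below 0.05, and a change is the difference in log2(FPKM + 1), derivative minus hESC of the same table, which understates the change of low genes. Only 2 hESC libraries are listed, so the 4 comparisons are taken to share their controls. HAND1 in hESC was nevertheless at 0.142 FPKM in the DE table and at 1.27 to 1.47 FPKM in those of MESO, NPC and NCSC. Which libraries entered each of the 4 hESC columns is not stated. Over the 35 members with a mean of 1 FPKM or more in them, FUT8 and FUT11 left out, the highest hESC value was 1.21 times the lowest at the median and 2.15 times for B3GNT9. Levels are given below beside the range of the 4 hESC columns. In bulk RNA, fewer cells of a type and less RNA per cell cannot be told apart. Summed FPKM of the marker genes of each derivative was 3410 in DE against 42.37 in hESC, 968.6 in MESO against 2.619 in hESC, 331.6 in NPC against 24.91 in hESC and 33.47 in NCSC against 3.291 in hESC. Of the 6 markers of each, 5 rose in DE, 6 in MESO and 5 in NPC. Single genes weigh on these sums: CER1, in a merged locus, gave 2796 FPKM in DE, and HAND1 758 FPKM in MESO. OTX2 gave 153 FPKM in NPC but was at 177 FPKM in DE, where the NPC markers summed to 179.2 FPKM. NPC and NCSC are together called the neural derivatives below. Of the 6 NCSC markers, PAX3 and SNAI2 rose, while TFAP2A was listed at 0.0463 FPKM and PAX7 at 0.0512 FPKM in NCSC. The same 6 markers summed to 122.3 FPKM in MESO against 3.234 FPKM in hESC. That is above their sum in NCSC, so the sum does not set NCSC apart from MESO. SNAI2 (80.9 FPKM) and TFAP2A (38.8 FPKM) gave most of the MESO sum, and SNAI2 was at 11.7 FPKM in NCSC. PAX3 went the other way, at 18.6 FPKM in NCSC and 2.06 FPKM in MESO. So did SOX10, at 2.91 and 0.365 FPKM, without a call in NCSC. ZIC1 was at 0.116 and 0.0270 FPKM. All 6 trophoblast and amnion markers rose in MESO, with a sum of 2003 FPKM in MESO against 171.6 FPKM in hESC, and 3 of 4 neuron markers rose in NPC, with a sum of 48.07 FPKM in NPC against 3.759 FPKM in hESC. In NCSC, 2 of the 4 neuron markers rose, with a sum of 30.67 FPKM in NCSC against 3.563 FPKM in hESC. The 6 hESC markers summed to 857.1 FPKM in DE against 2045 FPKM in hESC, and none of them fell there. In MESO they summed to 239.5 FPKM against 2077 FPKM in hESC, and 6 fell. In NPC the sum was 730.5 FPKM against 2347 FPKM in hESC, where 4 fell and SOX2 rose. NCSC had 485.7 FPKM against 2193 FPKM in hESC, and 3 fell. The part of cells with hESC, trophoblast, amnion or neuron markers in the DE, MESO, NPC and NCSC results was not tested.

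At 1 FPKM or more were 44 members in DE, 39 in MESO, 36 in NPC and 37 in NCSC, against 36 to 38 in the hESC columns. Another 11 members stayed below 1 FPKM everywhere: B3GALT2, B3GNT6, B4GALNT1, B4GALNT2, FUT6, FUT7, GCNT3, GCNT7, ST6GALNAC1, ST8SIA1 and ST8SIA5. The 61 genes thus held a broad set of transcribed enzymes in every cell type, and in MESO, NPC and NCSC, but not in DE, members were called in both directions, as the heat map of levels shows.

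**Figure D1:**
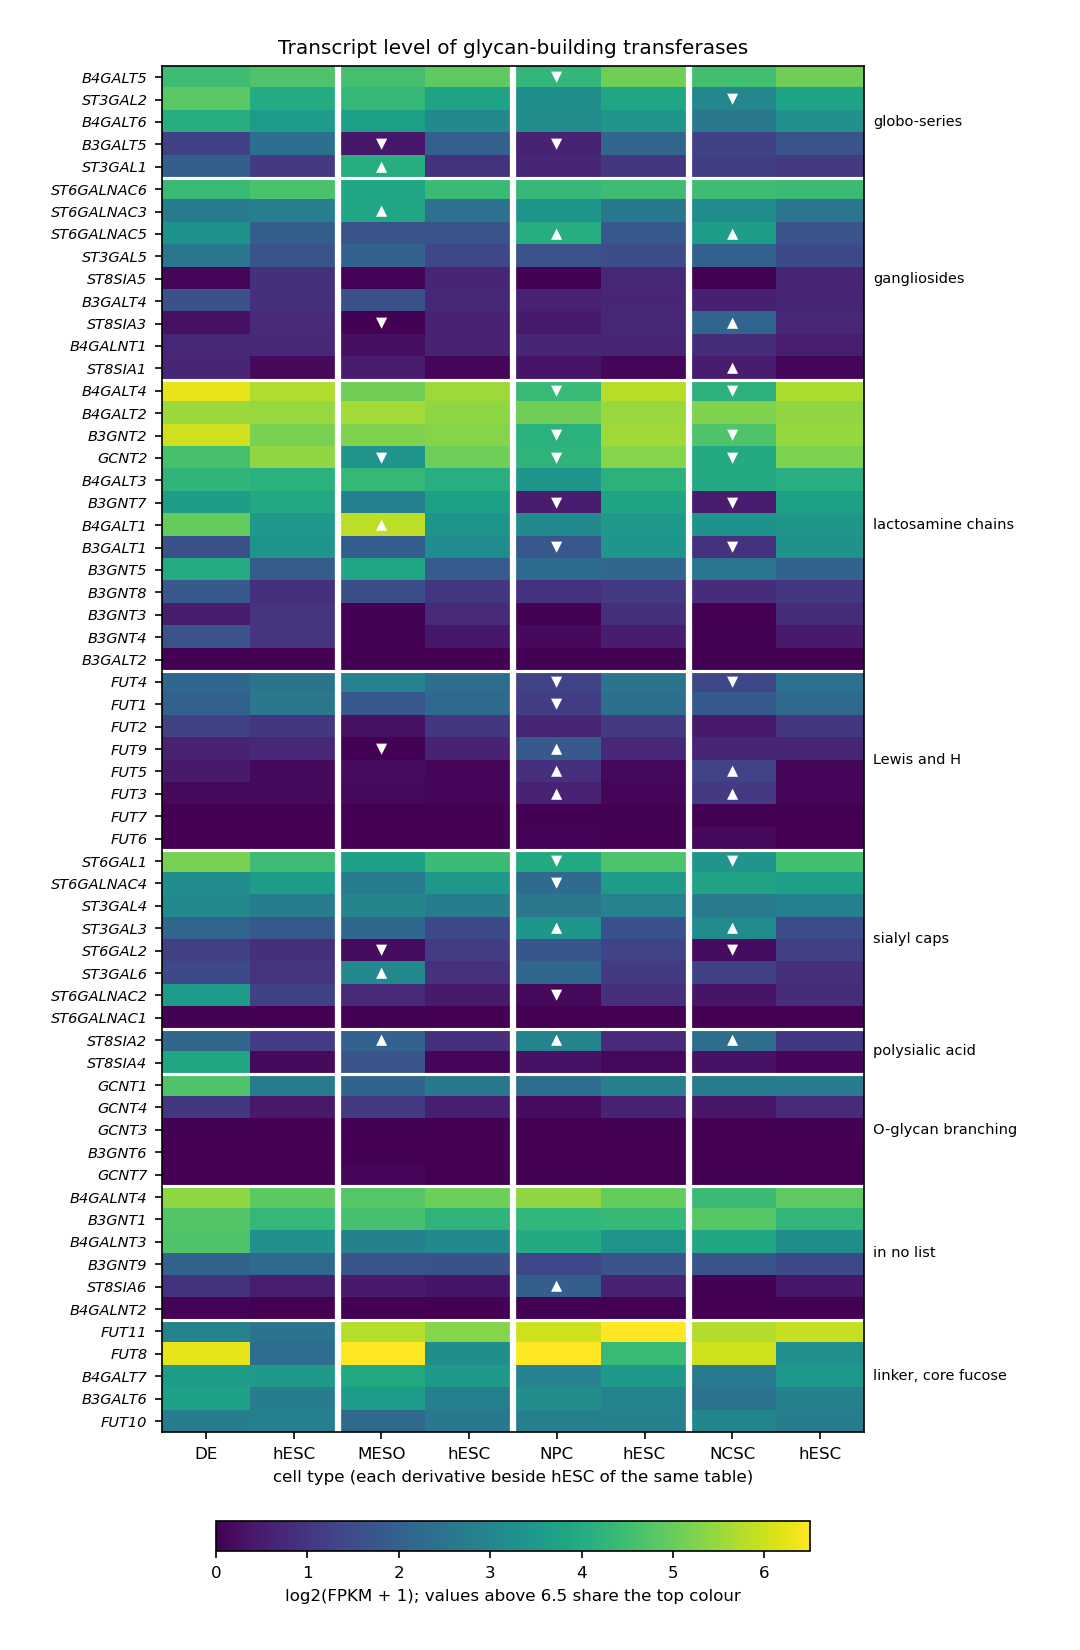
Levels of the 61 members in rows, grouped by role, as log2(FPKM + 1) in colour, with each derivative beside hESC of the same table in columns; triangles mark members called higher (up) or lower (down) at the authors' q below 0.05. The bright ST3GAL1 and B4GALT1 cells in MESO (15.7 and 57.0 FPKM) and the dark B3GNT7 cells in NPC and NCSC (0.437 and 0.443 FPKM) stand apart from hESC beside them.

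In NPC, 51 members had a test, of which 7 rose and 12 fell, or 37.3% called, and over all 14863 tested loci the share called was 36.8% (12.0% higher and 24.8% lower). In NCSC, 7 of 50 tested members rose and 9 fell, or 32.0%, where the share over all 14901 tested loci was 29.9% (10.2% higher and 19.7% lower). In MESO, 5 of 49 rose and 5 fell, or 20.4%, beside 14.4% of all 14796 tested loci (9.05% higher and 5.37% lower). At q below 0.01 it was 5 of the 49 members and 9.44% of loci in MESO. At an unadjusted p below 0.05 it was 17 of the 49 members and 24.2% of loci. In DE none of 52 tested members was called by the q-value of the authors' deposited table, where 0.426% of all 14789 tested loci were (0.406% higher and 0.0203% lower). In the authors' deposited table of DE, 7 members had an unadjusted p below 0.05, as did 4.88% of all loci, and 1, ST8SIA4, was called with normal p-values computed from its test statistic, as were 1.23% of loci. The members' shares in NPC and NCSC lay close to those of all loci, and are read as no result about the set. The MESO share rests on 10 calls in a set proposed with earlier results known, and is read as no result either. Of the 61 members, 27 were called in at least 1 table and 34 in none.

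**Figure D2:**
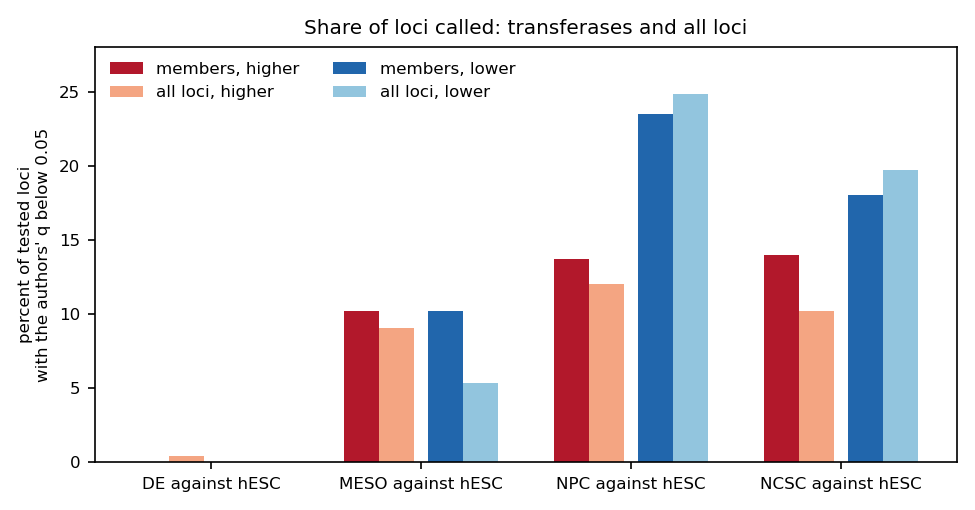
Bars give the percent of tested members and of all tested loci called higher and lower at the authors' q below 0.05, for DE, MESO, NPC and NCSC against hESC. Members called lower were 23.5% in NPC, beside 24.8% of all loci, and no member was called in DE.

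Over the members at 1 FPKM or more in either cell type, the median change was 0.47 in DE (45 members), 0.24 in MESO (42), -0.31 in NPC (41) and -0.12 in NCSC (42). The same over all loci was 0.05 in DE, 0.07 in MESO, -0.27 in NPC and -0.23 in NCSC. Over all 61 members the medians were 0.32 in DE, 0.03 in MESO, -0.15 in NPC and -0.05 in NCSC. The tables of NPC and NCSC are thus shifted downward as a whole, and centring the changes on all loci, with normal p-values from the deposited statistic, called 6 members higher and 7 lower in NPC, where it called 20.4% of all loci, and 7 higher and 5 lower in NCSC, where it called 14.7%. In MESO the same gave 2 higher and 5 lower, with 8.06% of all loci called, and in DE it called ST8SIA4 higher, with 1.17% of all loci called. Below, a call lost with normal p-values was lost before any centring, and a call lost on centring was kept with normal p-values and lost when these were centred.

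**Figure D3:**
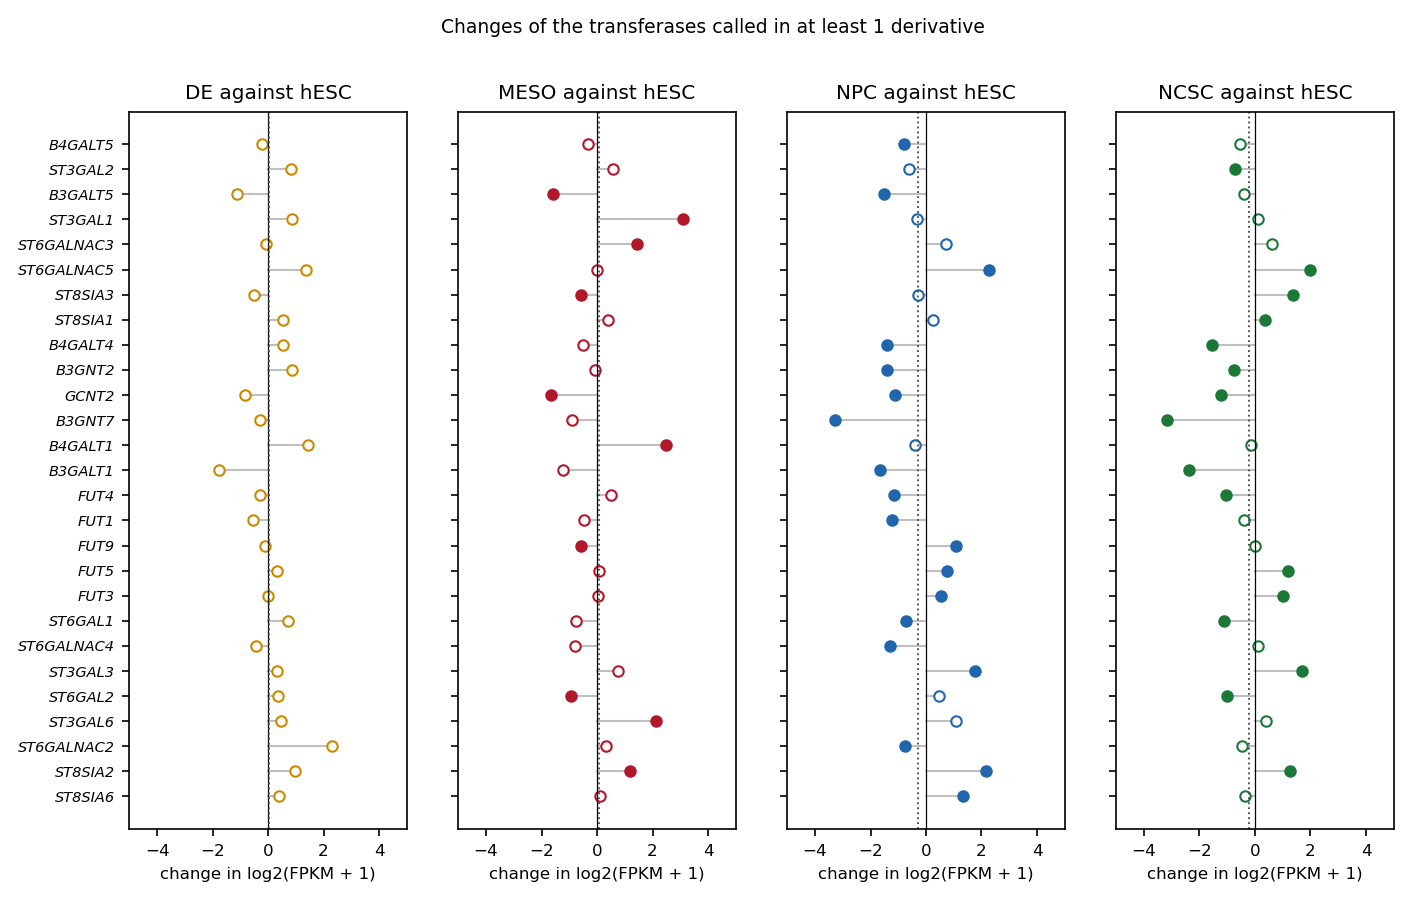
Change in log2(FPKM + 1), derivative minus hESC, of the 27 members called in at least 1 table, with filled points where the authors' q was below 0.05 and a dotted line at the median over all loci. B3GNT7 is the lowest point in NPC (-3.26) and NCSC (-3.17), ST3GAL1 the highest in MESO (3.11), and all points of DE are open.

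The promoters of 4 members are shown because their transcripts were called the same way in both neural derivatives: B3GNT7 and B4GALT4, which fell, and ST6GALNAC5 and ST3GAL3, which rose. They are, in each direction, the 2 members with the largest summed statistic among those that passed filters, and not the largest of all. A member needed 1 annotated start and a RefSeq span of at most 2 times its locus in the NPC table. The sequences are from RefSeq (GRCh38.p14), 250 bases before to 50 after the annotated start, 5′ to 3′ on the gene's strand. They lie at chr2:231395460-231395759 on the plus strand (B3GNT7), chr3:119240829-119241128 on the minus strand (B4GALT4), chr1:76867230-76867529 on the plus strand (ST6GALNAC5) and chr1:43707286-43707585 on the plus strand (ST3GAL3). Capitals mark motif letters on either strand.
B3GNT7: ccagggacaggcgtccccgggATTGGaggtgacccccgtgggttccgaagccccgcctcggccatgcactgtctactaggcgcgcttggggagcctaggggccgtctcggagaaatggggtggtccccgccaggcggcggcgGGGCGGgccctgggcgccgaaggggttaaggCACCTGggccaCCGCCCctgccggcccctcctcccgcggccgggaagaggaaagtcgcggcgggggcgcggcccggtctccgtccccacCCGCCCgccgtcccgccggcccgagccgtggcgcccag
B4GALT4: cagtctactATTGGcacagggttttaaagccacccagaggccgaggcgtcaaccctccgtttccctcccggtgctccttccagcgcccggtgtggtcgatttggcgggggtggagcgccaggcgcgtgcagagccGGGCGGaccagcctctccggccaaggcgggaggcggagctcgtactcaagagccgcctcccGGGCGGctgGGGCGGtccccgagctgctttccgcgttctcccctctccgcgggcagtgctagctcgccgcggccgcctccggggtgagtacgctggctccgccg
ST6GALNAC5: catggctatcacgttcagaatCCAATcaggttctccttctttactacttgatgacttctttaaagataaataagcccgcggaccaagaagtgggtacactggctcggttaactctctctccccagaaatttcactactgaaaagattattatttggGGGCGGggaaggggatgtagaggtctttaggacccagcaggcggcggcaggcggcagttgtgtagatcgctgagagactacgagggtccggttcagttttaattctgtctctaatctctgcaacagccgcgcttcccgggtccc
ST3GAL3: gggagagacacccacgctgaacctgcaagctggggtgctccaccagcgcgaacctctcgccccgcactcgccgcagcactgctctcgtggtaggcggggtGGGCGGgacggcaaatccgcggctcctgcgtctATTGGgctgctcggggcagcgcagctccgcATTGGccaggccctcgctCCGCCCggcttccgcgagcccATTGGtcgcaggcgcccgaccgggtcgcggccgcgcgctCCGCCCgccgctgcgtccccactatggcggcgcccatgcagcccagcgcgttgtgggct
The motifs searched, on both strands, were GGGCGG (GC box), CCAAT (bound by NF-Y), TATAAA (bound by TBP), CAGGTG (the E-box of SNAI and ZEB factors), ATGCAAAT (the POU octamer) and CTTTGAT (the TCF and LEF core). GGGCGG stood 3 times in the promoters of B3GNT7, B4GALT4 and ST3GAL3 and 1 time in that of ST6GALNAC5, and 45.0% of 35116 RefSeq promoters of this length hold it. CCAAT stood 3 times in ST3GAL3 and 1 time in each of the others, and 34.6% of promoters hold it. CAGGTG was found in B3GNT7 alone of the 4, and 20.6% of promoters hold it. TATAAA (11.5% of promoters), ATGCAAAT (1.77%) and CTTTGAT (2.62%) were in none of the 4 windows. CG pairs numbered 37 in B3GNT7, 34 in B4GALT4 and 39 in ST3GAL3 but 14 in ST6GALNAC5, which is the median over all promoters. Which start these cells used was not measured, and a match is only a match of letters. A promoter was found in the table for 42 of the 61 members.

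Globo-series glycolipids start from lactosylceramide and are completed by B3GALT5 and then by ST3GAL1 or ST3GAL2, which put sialic acid on the chain that carries SSEA-4. In MESO, B3GALT5 fell and ST3GAL1 rose. B3GALT5, which makes the SSEA-3 structure and also lacto chains, was at 1.40 FPKM in DE, 0.331 in MESO, 0.534 in NPC and 1.43 in NCSC, against 2.22 to 4.17 FPKM in hESC. It fell by 1.57 on the log2 scale in MESO and by 1.52 in NPC, at q-values of 0.000868 and 0.000323 in the authors' deposited tables. B3GALT5 was not called in DE (unadjusted p of 0.0403 in the authors' deposited table) or NCSC. Its locus is shorter in the NCSC table, chr21:41029253-41034815, and runs to 41045180 in those of DE, MESO and NPC. The NCSC values, with 2.22 FPKM in hESC, are therefore not like for like with the others. ST3GAL1, a sialyltransferase of glycolipids and of O-glycans, was at 2.91 FPKM in DE, 15.7 in MESO, 0.614 in NPC and 1.31 in NCSC, against 0.931 to 1.15 FPKM in hESC. Its rise in MESO, 16.9-fold, was the highest change among the called members there, at a q of 0.000868 in the authors' deposited table. In MESO the summed FPKM of trophoblast and amnion markers was 2003, against 171.6 in hESC, with KRT8 and KRT18 giving most of both. The part of cells with these markers in the MESO values of B3GALT5, ST3GAL1 and the other members was not tested. ST3GAL2, held to be the main SSEA-4 synthase, was at 27.3 FPKM in DE, 18.9 in MESO, 8.44 in NPC and 7.26 in NCSC, against 12.5 to 14.9 FPKM in hESC. It fell in NCSC by 1.73-fold, a call lost with normal p-values. B4GALT5, a lactosylceramide synthase, was at 21.4 FPKM in DE, 23.1 in MESO, 18.9 in NPC and 22.2 in NCSC, against 25.2 to 33.3 FPKM in hESC. It fell 1.77-fold in NPC, a call also lost with normal p-values. Its paralog B4GALT6, of the same function, was at 15.5 FPKM in DE, 12.0 in MESO, 8.08 in NPC and 5.05 in NCSC, against 7.50 to 10.8 FPKM in hESC, and was called nowhere.

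Among the genes of the ganglioside route, whose sialylated glycolipids are abundant in brain, ST6GALNAC5 rose most in the neural derivatives. ST6GALNAC5, which adds sialic acid to the inner sugar of gangliosides and is best known from brain, was at 9.10 FPKM in DE, 2.1997 in MESO, 15.5 in NPC and 11.6 in NCSC, against 2.16 to 2.89 FPKM in hESC. It rose 6.35-fold in NPC and 5.35-fold in NCSC, at q-values of 0.000323 and 0.000455 in the authors' deposited tables, and both calls held when centred. DE lay between, 3.15-fold above hESC and not called. ST6GALNAC3, with a like activity, was at 5.54 FPKM in DE, 13.4 in MESO, 9.34 in NPC and 7.99 in NCSC, against 4.36 to 5.84 FPKM in hESC. It rose in MESO by 1.43 on the log2 scale, a call lost with normal p-values. ST6GALNAC6 was at 19.8 FPKM in DE, 13.4 in MESO, 19.0 in NPC and 21.4 in NCSC, against 20.4 to 23.7 FPKM in hESC, and was called in no table. ST3GAL5, which makes GM3 and so opens the route, was at 4.91 FPKM in DE, 3.11 in MESO, 2.15 in NPC and 3.12 in NCSC, against 1.66 to 2.23 FPKM in hESC, uncalled throughout. The next enzymes stayed low: ST8SIA1, the GD3 synthase, was at 0.616 FPKM in DE, 0.419 in MESO, 0.287 in NPC and 0.404 in NCSC, against 0.0727 to 0.115 FPKM in hESC. B4GALNT1, the GM2 and GD2 synthase, was at 0.643 FPKM in DE, 0.206 in MESO, 0.617 in NPC and 0.819 in NCSC, against 0.453 to 0.660 FPKM in hESC. ST8SIA1 was nevertheless called higher in NCSC, at a q of 0.00902 in the authors' deposited table, with a level below 1 FPKM on both sides. ST8SIA3, a sialyltransferase that extends sialic acid chains and is known mainly from brain, was at 0.223 FPKM in DE, 0.0341 in MESO, 0.380 in NPC and 3.36 in NCSC, against 0.559 to 0.744 FPKM in hESC. It fell in MESO by 0.59 on the log2 scale and rose in NCSC by 1.38, and NCSC was the only cell type above 1 FPKM. ST8SIA5 was listed at 0.0213 to 0.0734 FPKM in the derivatives, against 0.633 to 0.844 FPKM in hESC, and was called in no table; normal p-values from the statistic called it lower in NPC and NCSC. B3GALT4, the GM1 synthase, ranged from 0.482 FPKM in NCSC to 2.07 FPKM in MESO, against 0.591 to 0.852 FPKM in hESC, with no call.

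The enzymes of lacto and lactosamine chains, the repeats of galactose and N-acetylglucosamine that carry keratan sulfate and poly-lactosamine, had 5 members that fell and none that rose in NPC (12 tested), and the same counts in NCSC (11 tested). The share called lower was 41.7% in NPC and 45.5% in NCSC, beside 24.8% in NPC and 19.7% in NCSC over all loci. Over the 10 of these members at 1 FPKM or more in either cell type, the median change was -0.94 in NPC and -0.49 in NCSC. Over all loci it was -0.27 in NPC and -0.23 in NCSC. The list was chosen with earlier results of these data known, so these shares and medians are read as no result about it. B3GNT7, which extends the keratan sulfate chain, lies at chr2:232260334-232265875 in the tables (hg19) and gave the largest drop of all called members in both neural derivatives. It was at 11.3 FPKM in DE, 6.04 in MESO, 0.437 in NPC and 0.443 in NCSC, against 12.0 to 14.1 FPKM in hESC, or 29.3-fold lower in NPC and 27.1-fold lower in NCSC. The q-values were 0.000323 and 0.000455 in the authors' deposited tables, the lowest that each of these tables holds. DE and MESO had no call, and MESO lay 1.99-fold below hESC. B4GALT4, the galactosyltransferase of keratan sulfate, was at 76.3 FPKM in DE, 33.0 in MESO, 20.4 in NPC and 17.0 in NCSC, against 46.7 to 55.1 FPKM in hESC. It fell 2.71-fold in NPC and 3.01-fold in NCSC, so both of these keratan sulfate enzymes fell in both neural derivatives. B3GALT1, a maker of lacto chains, was at 2.06 FPKM in DE, 2.82 in MESO, 2.40 in NPC and 0.937 in NCSC, against 8.01 to 9.74 FPKM in hESC, with calls for NPC and NCSC. B3GNT2, the main poly-lactosamine enzyme of N-glycans, was at 64.9 FPKM in DE, 37.0 in MESO, 16.9 in NPC and 25.4 in NCSC, against 35.5 to 46.3 FPKM in hESC, and fell in NPC and NCSC, the NCSC call being lost with normal p-values. GCNT2, which puts the branches on poly-lactosamine that give the I antigen, was at 23.4 FPKM in DE, 9.45 in MESO, 17.6 in NPC and 14.8 in NCSC, against 32.3 to 42.0 FPKM in hESC. It fell in MESO, NPC and NCSC, with changes of -1.67, -1.10 and -1.23 on the log2 scale; centring removed the NPC and NCSC calls, and not that of MESO.

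B4GALT1, the main galactosyltransferase of N-glycans, was at 30.0 FPKM in DE, 57.0 in MESO, 7.65 in NPC and 8.89 in NCSC, against 9.24 to 10.5 FPKM in hESC. The 6.17-fold rise in MESO was the only rise in this list, at a q of 0.000868 in the authors' deposited table. DE was 2.86-fold above hESC with an unadjusted p of 0.0297 in the authors' deposited table, and no call. B3GNT5, which starts lacto-series glycolipids, was at 14.9 FPKM in DE, 13.2 in MESO, 3.83 in NPC and 4.90 in NCSC, against 2.71 to 3.45 FPKM in hESC; no table called it, and its locus overlaps MCF2L2. B4GALT2 was at 45.2 FPKM in DE, 47.3 in MESO, 33.1 in NPC and 37.1 in NCSC, against 41.1 to 44.5 FPKM in hESC, in a locus that 3 of the tables merge with CCDC24. B4GALT3 was at 18.1 FPKM in DE, 19.2 in MESO, 9.53 in NPC and 14.6 in NCSC, against 15.8 to 17.1 FPKM in hESC, in a locus that overlaps PPOX. Both are galactosyltransferases of N-glycans and neither was called. B3GNT8, B3GNT3, B3GNT4 and B3GALT2, the other members of the list, peaked at 2.54, 1.01, 2.17 and 0.0224 FPKM, with no call; normal p-values called B3GNT3 lower in MESO and NPC.

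Fucosyltransferases of the Lewis and H antigens divided in the neural derivatives: FUT4 fell, while FUT3 and FUT5 rose at low levels. FUT4, which makes the Lewis x structure (SSEA-1 in mouse embryos), was at 3.60 FPKM in DE, 6.34 in MESO, 1.54 in NPC and 1.65 in NCSC, against 4.14 to 4.71 FPKM in hESC. It fell 3.07-fold in NPC and 2.67-fold in NCSC, both calls being lost on centring. FUT9, the other Lewis x enzyme and known from brain, was at 0.529 FPKM in DE, 0.0289 in MESO, 2.60 in NPC and 0.612 in NCSC, against 0.529 to 0.681 FPKM in hESC. It rose in NPC and fell in MESO, at q-values of 0.000323 and 0.0222 in the authors' deposited tables, and NPC was the only cell type above 1 FPKM. FUT1, an H antigen enzyme, was at 3.07 FPKM in DE, 2.40 in MESO, 1.27 in NPC and 2.60 in NCSC, against 3.67 to 4.99 FPKM in hESC, and fell in NPC, a call lost on centring. FUT2, its paralog, was at 1.39 FPKM in DE, 0.219 in MESO, 0.596 in NPC and 0.379 in NCSC, against 1.03 to 1.16 FPKM in hESC, with no call; the MESO value had a q of 0.0544 in the authors' deposited table. FUT3 and FUT5 are neighbouring paralogs on chromosome 19 with FUT6, and reads that suit more than 1 of them may be assigned wrongly. FUT3 was at 0.129 FPKM in DE, 0.101 in MESO, 0.562 in NPC and 1.15 in NCSC, against 0.0769 to 0.130 FPKM in hESC. FUT5 was at 0.392 FPKM in DE, 0.151 in MESO, 0.845 in NPC and 1.498 in NCSC, against 0.0820 to 0.115 FPKM in hESC. Both rose in NPC and NCSC, where the highest level was that of FUT5 in NCSC and the NPC call of FUT3 was lost with normal p-values, and FUT6 stayed at 0.111 FPKM or less. FUT7, the enzyme of sialyl Lewis x in leukocytes, was listed at 0.027 FPKM or less.

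Among the sialyltransferases that cap N- and O-glycans, ST6GAL1 fell and ST3GAL3 rose in both neural derivatives. ST6GAL1, the main sialyltransferase that caps N-glycans in one of the 2 common linkages, was at 34.7 FPKM in DE, 11.8 in MESO, 14.4 in NPC and 9.54 in NCSC, against 20.5 to 24.1 FPKM in hESC. It fell 1.68-fold in NPC and 2.30-fold in NCSC, the NPC call being lost with normal p-values and the NCSC call on centring. ST3GAL3, which caps N-glycans in the other linkage, was at 3.33 FPKM in DE, 3.58 in MESO, 9.68 in NPC and 7.97 in NCSC, against 1.71 to 2.46 FPKM in hESC. It rose 4.60-fold in NPC and 4.47-fold in NCSC, at q-values of 0.000323 and 0.000455 in the authors' deposited tables, and both held when centred. ST6GAL1 nonetheless had the higher level per length of the 2 in every cell type. ST6GAL2, the brain paralog of ST6GAL1, was at 1.34 FPKM in DE, 0.161 in MESO, 2.36 in NPC and 0.162 in NCSC, against 0.833 to 1.46 FPKM in hESC. It fell 7.66-fold in MESO, a call lost with normal p-values, and 8.42-fold in NCSC. The NPC value was not called. ST3GAL6, of the ST3GAL3 type, was at 1.76 FPKM in DE, 7.33 in MESO, 3.55 in NPC and 1.42 in NCSC, against 0.853 to 1.15 FPKM in hESC. It rose in MESO by 2.13 on the log2 scale. Its locus overlaps DCBLD2 and ST3GAL6-AS1, the strand of counting is not stated, and the call was lost with normal p-values. ST6GALNAC2, a sialyltransferase of O-glycans, was at 10.8 FPKM in DE, 0.731 in MESO, 0.0983 in NPC and 0.293 in NCSC, against 0.374 to 1.39 FPKM in hESC, the DE value having an unadjusted p of 0.00265 in the authors' deposited table and no call, and it fell in NPC. ST6GALNAC4, of the same kind, was at 8.12 FPKM in DE, 5.36 in MESO, 3.86 in NPC and 12.8 in NCSC, against 10.1 to 11.7 FPKM in hESC, and also fell in NPC. Centring removed both calls. ST3GAL4 ranged from 4.93 FPKM in NPC to 7.54 FPKM in DE, against 5.69 to 6.34 FPKM in hESC, and ST6GALNAC1 stayed at 0.0272 FPKM or less.

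Polysialic acid is made by ST8SIA2 and ST8SIA4, chiefly on NCAM1, and the 2 enzymes had their highest level in different derivatives, ST8SIA2 in NPC and ST8SIA4 in DE. ST8SIA2, the form known from the developing nervous system, was at 3.39 FPKM in DE, 3.16 in MESO, 6.70 in NPC and 4.00 in NCSC, against 0.723 to 1.23 FPKM in hESC. It rose in MESO, NPC and NCSC, 3.84-fold, 9.27-fold and 3.67-fold, the MESO call being lost with normal p-values. ST8SIA4 was at 13.7 FPKM in DE, 2.26 in MESO, 0.245 in NPC and 0.239 in NCSC, against 0.0729 to 0.128 FPKM in hESC. In DE it was 107-fold above an hESC level near 0, with an unadjusted p of 0.0101 and a q of 0.292 in the authors' deposited table, so it was not called. In MESO the q was 0.0862 in the authors' deposited table, and NPC and NCSC had no test. The carrier NCAM1 was at 1.98 FPKM in DE, 6.80 in MESO, 12.7 in NPC and 6.67 in NCSC, against 0.384 to 0.564 FPKM in hESC, and rose in MESO, NPC and NCSC.

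**Figure D4:**
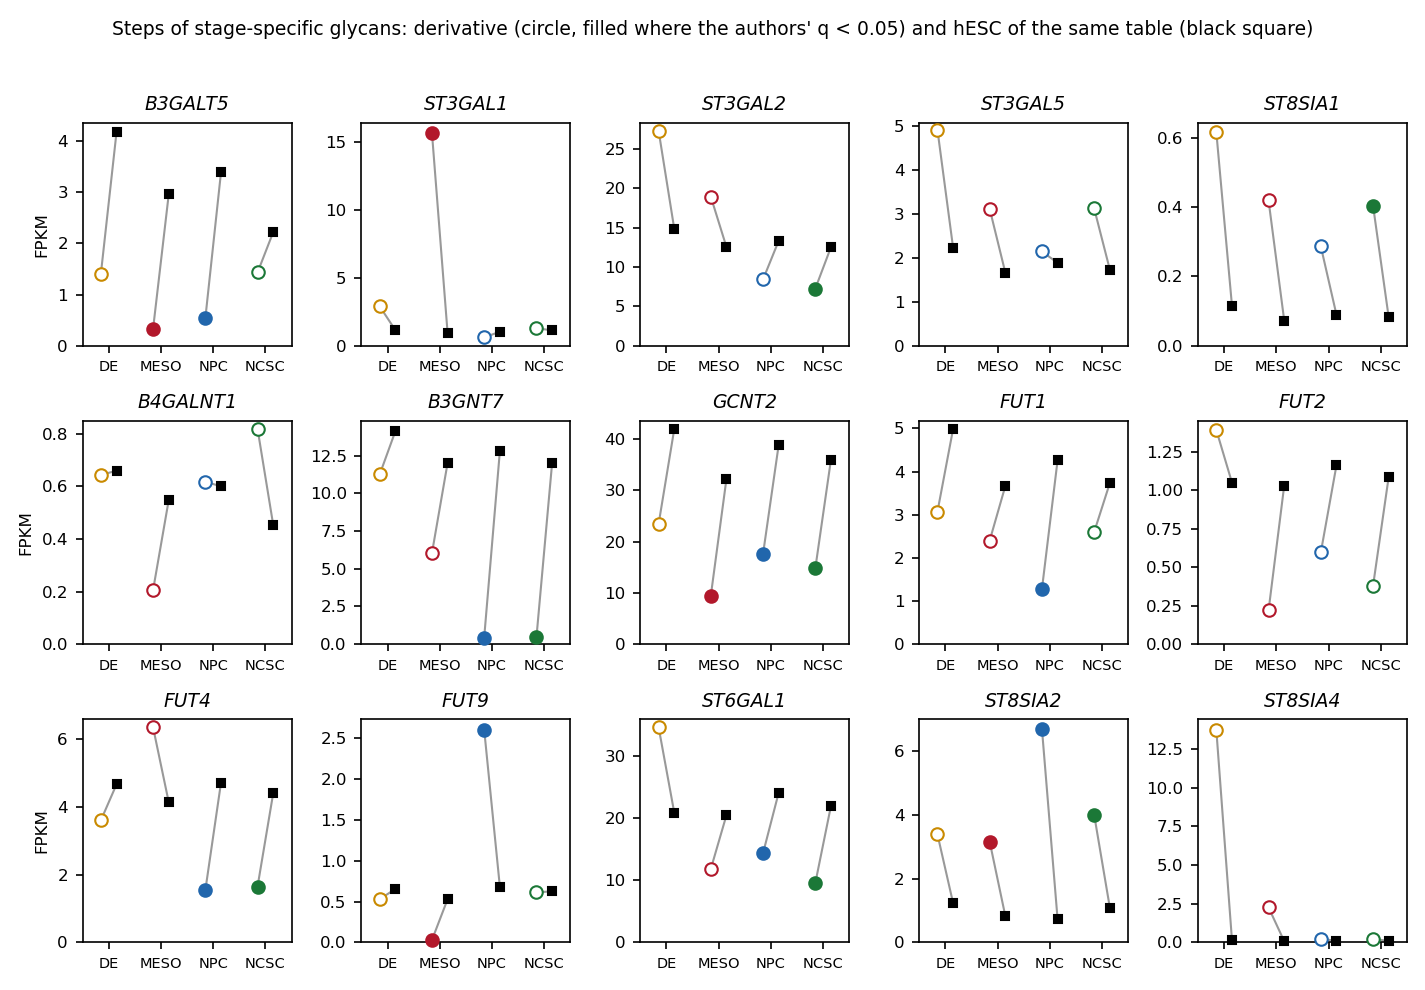
FPKM of 15 members that make or name stage-related glycans, in each derivative (circles, filled where called at the authors' q below 0.05) and in hESC of the same table (black squares). B3GNT7 is at 0.437 FPKM in NPC and 0.443 in NCSC, ST8SIA4 at 13.7 FPKM in DE without a call, and ST8SIA2 above hESC in each derivative, with calls in MESO, NPC and NCSC.

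GCNT1, which makes the core branch of mucin O-glycans on which lactosamine chains grow, was at 25.0 FPKM in DE, 3.23 in MESO, 4.07 in NPC and 5.43 in NCSC, against 5.04 to 6.12 FPKM in hESC. DE stood 4.63-fold above hESC, with an unadjusted p of 0.0046 and a q of 0.239 in the authors' deposited table, and no call. GCNT4 peaked at 1.14 FPKM in MESO and GCNT3, GCNT7 and B3GNT6 at 0.0557 FPKM or less, none of them called. B4GALNT3 and B4GALNT4, which make the LacdiNAc structure, were well transcribed and uncalled: B4GALNT3 was at 25.1 FPKM in DE, 6.28 in MESO, 14.7 in NPC and 13.7 in NCSC, against 7.31 to 9.32 FPKM in hESC. B4GALNT4 was at 41.3 FPKM in DE, 26.8 in MESO, 42.0 in NPC and 20.6 in NCSC, against 28.2 to 32.2 FPKM in hESC. B4GALNT2 was listed at 0.0387 FPKM or less. ST8SIA6, which adds sialic acid onto sialic acid on O-glycans, was at 0.950 FPKM in DE, 0.393 in MESO, 2.92 in NPC and 0.0312 in NCSC, against 0.290 to 0.540 FPKM in hESC, and rose in NPC, a call lost with normal p-values and made again when these were centred. Its locus overlaps an antisense gene, ST8SIA6-AS1, so the reads of these cannot be told apart without strand. The locus named B3GNT1 on chromosome 11 was at 26.2 FPKM in DE, 23.6 in MESO, 18.8 in NPC and 26.9 in NCSC, against 17.8 to 19.4 FPKM in hESC, uncalled; RefSeq gives this symbol as a synonym of more than 1 gene, so no role is given. B3GNT9, in a locus that overlaps C16orf70, ranged from 1.63 FPKM in NPC to 3.22 FPKM in DE, against 1.71 to 3.68 FPKM in hESC.

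Some symbols in the set are not terminal steps. B3GALT6, at 12.3 FPKM in DE, 10.9 in MESO, 8.32 in NPC and 4.60 in NCSC, against 5.64 to 6.45 FPKM in hESC, and B4GALT7, at 11.4 FPKM in DE, 14.3 in MESO, 6.34 in NPC and 5.42 in NCSC, against 10.1 to 10.5 FPKM in hESC, build the linker of proteoglycans and were called nowhere. FUT8, which adds fucose on the core of N-glycans, has 6 or 7 rows in each table, and the row with the highest mean was picked in each table by itself. It was at 75.3 FPKM in DE, 95.2 in MESO, 109 in NPC and 64.4 in NCSC. Beside these, hESC of the same table was at 4.06, 8.46, 19.9 and 8.60 FPKM, and there was no call. The rows picked need not be the same part of the gene, so these levels are not compared between derivatives. A different FUT8 row of each table, chosen after its values were seen as the one with the lowest p, was at 26.5 FPKM in DE, 43.9 in MESO, 25.0 in NPC and 23.8 in NCSC, against 5.57 to 7.39 FPKM in hESC. That row was called higher in MESO, NPC and NCSC, with q-values of 0.000868, 0.000323 and 0.000455 in the authors' deposited tables, and in DE it had a q of 0.477 in the authors' deposited table, so whether FUT8 changed depends on the row. FUT11 was at 6.55 FPKM in DE, 53.3 in MESO, 64.1 in NPC and 52.5 in NCSC, against 4.68 to 101 FPKM in hESC. Its locus is alone in the DE table and merged with SEC24C or CHCHD1 in the other 3, and no level of FUT11 itself can be read from those 3. FUT10 ranged from 3.73 FPKM in MESO to 6.86 FPKM in NCSC, against 5.23 to 6.18 FPKM in hESC, uncalled.

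Genes that supply these enzymes with sugars, start their chains or carry their products were counted from lists of non-members, and none of them was called in DE. Of 23 genes of nucleotide sugar synthesis and Golgi transport, 1 rose and 9 fell in NPC, 3 rose and 8 fell in NCSC, and 1 rose in MESO. The shares called were 43.5% in NPC, 47.8% in NCSC and 4.35% in MESO, beside 36.8%, 29.9% and 14.4% of all loci in those tables. The falls in NPC and NCSC include SLC35A2, whose locus is merged there, with 144 and 135 FPKM in hESC. In the MESO table it is not merged and hESC is at 11.3 FPKM. No level of SLC35A2 itself can be read from the merged loci. UGP2, which makes UDP-glucose, is not in these counts, because its FPKM ratio and the statistic in the authors' deposited table of NPC had opposite signs. That table gave 1223 FPKM in NPC against 549.8 FPKM in hESC, with a negative statistic. UGP2 also had a q below 0.05 in the authors' deposited tables of MESO, at 20.5 FPKM in MESO against 446 FPKM in hESC, and of NCSC, at 429 FPKM in NCSC against 507 FPKM in hESC. NANS, the sialic acid synthase, was at 4.29 FPKM in NPC and 20.9 in NCSC, against 50.3 and 48.8 FPKM in hESC of those tables, and fell in both. TSTA3, which makes GDP-fucose, was at 9.16 FPKM in NPC and 12.8 in NCSC, against 47.1 and 44.7 FPKM in hESC in those tables. GFPT2, which opens the hexosamine pathway, was at 10.1 FPKM in NPC and 8.99 in NCSC, against 43.0 FPKM in hESC of each table. Of 22 tested genes of glycan cores and branches, 2 rose and 6 fell in NPC, 2 rose and 7 fell in NCSC and 3 rose and 3 fell in MESO. The shares called were 36.4% in NPC, 40.9% in NCSC and 27.3% in MESO, beside 36.8%, 29.9% and 14.4% of all loci. The NPC share thus lay near that of all loci. GALNT3, which starts mucin O-glycans, was at 0.164 FPKM in NPC and 0.190 in NCSC, against 32.5 and 30.0 FPKM in hESC. MGAT3, which adds the bisecting sugar of N-glycans, rose in MESO, NPC and NCSC, to 19.6, 10.6 and 7.30 FPKM against 3.79, 4.08 and 3.82 FPKM in hESC of those tables. Of 13 tested sialidases, sulfotransferases and carriers, 3 rose and 7 fell in NPC, 2 rose and 5 fell in NCSC and 1 rose and 3 fell in MESO. The shares called were 76.9% in NPC, 53.8% in NCSC and 30.8% in MESO, beside 36.8%, 29.9% and 14.4% of all loci. The 13 genes include PODXL, NCAM1 and ALPL, each called in 3 tables, and were chosen with earlier results of these data known. Their shares are therefore read as no result about the list. The lists of nucleotide sugar genes and of cores and branches were chosen likewise, and their shares are read in the same way. PODXL, the protein that carries the TRA-1-60 epitope, was at 10.3 FPKM in NPC, 156 in NCSC and 79.3 in MESO, against 424, 397 and 373 FPKM in hESC of those tables. It fell in all 3. ALPL, the alkaline phosphatase of stem cells and bone, also fell there, to 43.1 FPKM in NPC, 49.6 in NCSC and 19.1 in MESO, against 125, 117 and 116 FPKM in hESC of those tables.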

How the data were processed

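Poly-A RNA of 10 libraries was sequenced. Cufflinks 2.2.1, TopHat2 2.0.13, featureCounts and Subread 1.5.2 and the build hg19 are named, without roles, per the submitters' processing notes. The authors deposited 4 tables, each with FPKM values in which the libraries of a cell type are combined, and, per the file headers, a test statistic (a signed score), a p-value and a q-value; their fold change column was not used. A locus with a p-value of 1 and a statistic of 0 was taken as not tested. Of several rows of 1 symbol on the assembled chromosomes, that with the highest mean FPKM was kept. Changes use a pseudocount of 1. The planned limma fit needs values per library, which the tables do not hold, so the authors' q below 0.05 is the call. Normal p-values were computed from the statistic and adjusted by the Benjamini-Hochberg method, with Python 3.11.15, pandas 2.3.3, numpy 2.4.6 and scipy 1.17.1. The adjustment was tested on simulated normal statistics, and whether the deposited statistic is normal was not tested. The 2 kinds of p-value can differ widely: ST8SIA4 in DE had a statistic of 5.64 with a p of 0.01015 in the authors' deposited table. Members with a call, with 10 FPKM or more in any cell type, or that name a stage-related glycan are given singly. The members and gene lists were chosen with earlier results of these data known.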

Additional observations from a re-analysis of the deposited data

Results flagged for a closer look

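FUT9 was called in opposite directions in 2 derivatives, with a log2 change of -0.57 in MESO and 1.10 in NPC. ST8SIA3 was likewise called in opposite directions, with a log2 change of -0.59 in MESO and 1.38 in NCSC. In each case the difference between the derivatives was not tested, both comparisons are taken to share the hESC libraries, and levels in hESC were below 1 FPKM.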

How the results depend on the processing

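All 45 calls of singly described members kept their direction under centring on all loci, quantile normalization and hESC of the other 3 tables. Under these, 11 or 12 of 176 changes changed sign, all of them uncalled. Centring moves a change only by the median over all loci, which was 0.07 in MESO, -0.27 in NPC and -0.23 in NCSC. It can reverse only changes smaller than that, so it hardly tests the direction of a larger change. The hESC columns mostly lie close together, so exchanging them hardly tests it either. Pseudocounts of 0.1 and 5 cannot change a sign, so they do not test direction. The sum over the rows of a symbol changed no sign, and it differs from the row kept only for members with several rows. No paired analysis was possible because each table holds 1 value per cell type; for the same reason the replicate block and leaving out each library were not run. In DE the count of called members was 1 with normal p-values, 1 with these centred and 7 at an unadjusted p below 0.05, and in MESO it was 5 at q below 0.01 and 17 at an unadjusted p below 0.05. The share of calls that were higher was 43.8% in NCSC, and 58.3% when centred. The median change over members was 0.55 in DE with a pseudocount of 0.1, 0.26 in DE, 0.17 in MESO and -0.14 in NPC with a pseudocount of 5, and 0.32 in DE, 0.03 in MESO and -0.15 in NPC over all members. Centred on all loci it was 0.17 in MESO, -0.03 in NPC and 0.10 in NCSC, so the sign of the NCSC median depends on the scaling. With quantile normalization it was 0.37 in DE, 0.07 in MESO, -0.09 in NPC and 0.09 in NCSC, and 0.12 in MESO with hESC of the other tables. At a floor of 5 FPKM, 28 members were transcribed in DE, 23 in NPC and 24 in NCSC. The cause was not tested. FUT8 by its row with the lowest p, an alternative chosen after seeing the data like the unadjusted p and the centred p-values, is described with FUT8 itself. Read depth is unknown, so low members have no interval.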

Other observations

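Genes of the globo-series route outside the symbol rule were called in both directions. B3GALNT1, which makes globoside before B3GALT5 acts, was at 6.40 FPKM in DE, 6.37 in MESO and 9.01 in NPC, against 2.17, 2.48 and 3.04 FPKM in hESC of those tables, and rose in NPC with a q of 0.00133 in the authors' deposited table. A4GALT, which makes the chain that B3GALNT1 extends, was at 5.73 FPKM in DE, 1.59 in MESO, 6.90 in NPC and 2.61 in NCSC, against 6.58 to 7.599 FPKM in hESC. It fell in MESO and NCSC, with q-values of 0.0131 and 0.00456 in the authors' deposited tables. UGCG, which makes glucosylceramide at the start of the route, was at 13.5 FPKM in NPC against 24.1 FPKM in hESC, and fell there with a q of 0.0287 in the authors' deposited table. B3GALNT1 was at 4.35 FPKM in NCSC against 2.83 FPKM in hESC, uncalled, as it was in DE and MESO.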
